A study of Mus musculus with 12 samples.

Results

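The genes of the proteasome, the protease complex that degrades ubiquitin-tagged proteins, were taken from the gene table by name. The rule kept every symbol of the Psma, Psmb, Psmc, Psmd, Psme, Psmf and Psmg series, other than Psmb8 and Psmb9, that had at least 10 reads in at least 3 libraries. It kept 45 of the 46 matching names, out of 44345 genes listed, and all 45 were among the 16819 genes tested. The name outside the rule was Psmb11, a thymus-type subunit, with 6, 3 and 1 reads in the vehicle libraries and 1, 3 and 3 in the MS275 libraries. The members were 16 core particle genes (8 Psma, 8 Psmb), 20 regulatory particle genes (6 Psmc, 14 Psmd), 4 other activators (Psme), 1 inhibitor (Psmf1) and 4 assembly chaperones (Psmg).

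RNA and open chromatin were measured in dorsal root ganglia, the clusters of sensory neurons beside the spinal cord, from lumbar levels 4 to 6 of C57BL/6 mice aged 6 to 8 weeks. All mice, controls included, had a dorsal column axotomy (DCA), a cut of the sensory axons within the spinal cord, 24 h before tissue was taken. MS275, also named entinostat, blocks class I histone deacetylases. In the treated group it was given at 12 mg/kg into the peritoneum at the injury and again 2 h before tissue was taken, and the control group received vehicle on the same schedule. There was no uninjured group here, so the comparison is of drug against vehicle after injury. Each group had 3 RNA libraries, each a pool of the ganglia of 2 mice, and 3 ATAC samples of 1 mouse each, deposited as 1 combined list of open regions per treatment. The series describes the triplicates as biological.

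The proteasome consists of a barrel-shaped core particle and a regulatory particle that caps it. The core is built of stacked rings of alpha subunits, which gate the entry, and beta subunits, of which Psmb5, Psmb6 and Psmb7 cut peptide bonds. The regulatory particle binds ubiquitin chains, removes them, and unfolds the substrate with a ring of ATPases. In interferon-exposed and immune cells Psmb8, Psmb9 and Psmb10 take the places of the 3 catalytic subunits and form the immunoproteasome. Long-lived neurons rely on the proteasome for protein turnover in the cell body and the axon, and it has roles in axon degeneration and regrowth.

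RNA libraries held 34992533 to 60370523 reads assigned to genes. Levels are given as CPM, the read count scaled to the normalised library size, and are not divided by transcript length, so the level of 1 gene is not compared with that of another. All 10 markers of sensory neurons were detected and tested, with a summed level of 14976 to 15515 CPM under vehicle and 15218 to 16780 CPM under MS275. The summed level of 9 skeletal muscle markers was 6.11 to 56.0 CPM under vehicle and 90.2 to 642 CPM under MS275, with MS275 replicate 1 the highest; 9 of 9 rose and none was at 0 in every library. MS275 replicate 1 was also highest for 5 neutrophil markers (210 CPM, against 32.7 to 58.0 in the other libraries). The same held for the 3 erythroid markers tested, of 5 listed (142 CPM, against 31.5 to 63.8). In whole ganglia, fewer cells of a type and less RNA per cell cannot be told apart.

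No proteasome transcript passed the test. Of 45 members, 0 rose and 0 fell (edgeR quasi-likelihood test, Benjamini-Hochberg adjusted p under 0.05 over all genes tested), where 5.10% of all genes tested rose and 5.89% fell. At an unadjusted p under 0.05 the same test took 9 members as higher and 1 as lower under MS275, against 13.6% and 14.9% of all genes (28.5% in either direction). DESeq2 called 3 higher (Psma2, Psmd4 and Psmd13) and 1 lower (Psmb10), where it called 7.14% of all genes higher and 6.99% lower, and limma voom called 0. The estimated changes were small. The median log2 fold change over the members was 0.06, with a range from -0.29 (Psmb10) to 0.16 (Psmg2), beside a median of 0.002 over all genes tested. Estimates lay above 0 for 35 of 45 members (77.8%), against 50.5% of all genes.

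The intervals were narrow for these genes. The 95% interval of the change, not adjusted for the number of genes, lay within 1.5-fold in either direction for 44 of 45 members, the exception being Psma8, and for 70.8% of all genes tested. It lay within 1.3-fold for 43 members, all but Psma8 and Psmb10, against 54.6% of all genes. Proteasome transcripts were also more deeply counted than most. In read depth, with no account of length, their median was 129 CPM against 16.6 CPM for all genes, and the median coefficient of variation was 2.28% between vehicle libraries and 3.72% between MS275 libraries, against 5.11% and 7.68%. Summed over the members, the level was 5414, 5473 and 5557 CPM in vehicle replicates 1, 2 and 3 and 5612, 5677 and 5711 CPM in MS275 replicates 1, 2 and 3. The MS275 libraries thus all lay above the vehicle libraries in the summed level. The gap from the highest vehicle library (5557 CPM) to the lowest MS275 library (5612 CPM) was smaller than the spread among the vehicle libraries.

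**Figure D1:**
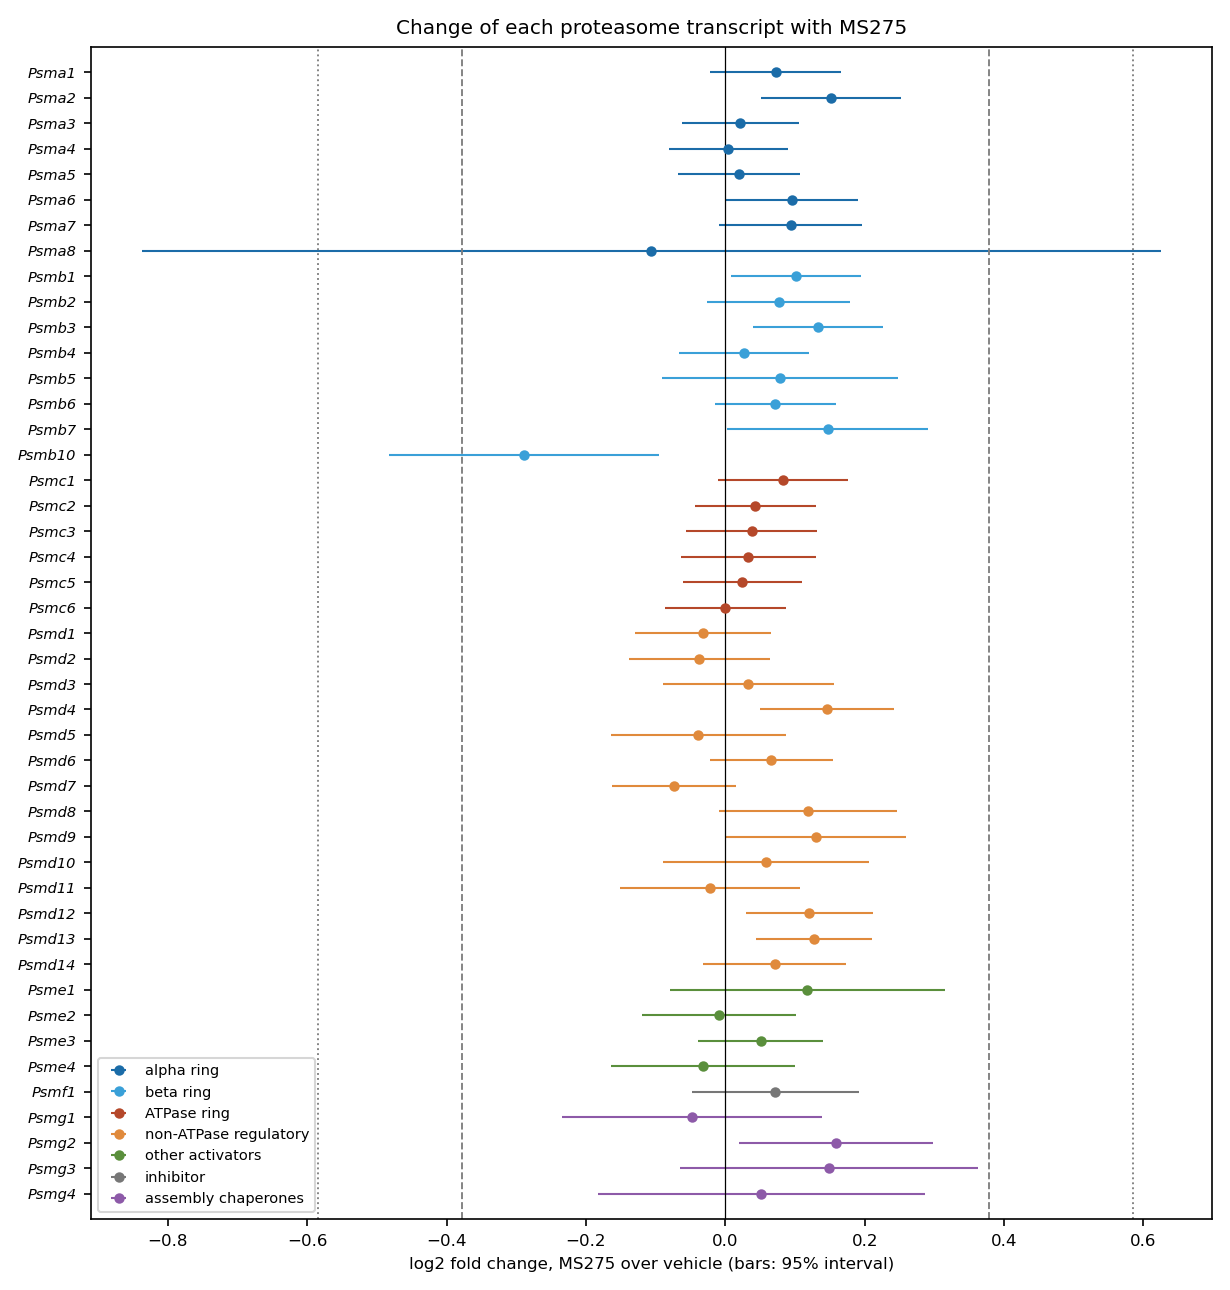
Log2 fold change of each proteasome transcript, MS275 over vehicle (x axis), with genes on the y axis coloured by role and bars for the 95% interval; dashed lines mark 1.3-fold and dotted lines 1.5-fold. The interval of 43 of 45 members lies inside the dashed lines, Psmb10 lies lowest, and the widest interval is that of Psma8.

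The listed starts of these genes mostly lay in open chromatin under both treatments. RefSeq gave a start for 37 of 45 members, not for Psma8, Psmb1, Psmb2, Psmb7, Psmc3, Psmd3, Psmd7 or Psmg2. In the vehicle list 37 of 37 had an open region within 1000 bp of a start, and in the MS275 list 36 of 37, where 91.2% and 90.4% of genes tested in RNA and 59.5% and 57.8% of all genes did. Of 40 listed starts, 38 lay inside a region of the vehicle list. The others were that of Psmb10 and an additional start of Psma6, the latter with no region within 1000 bp in either list. The member without a region in the MS275 list was Psmg3, whose vehicle region was the narrowest of the set, 569 bp wide, with a deposited fold enrichment of 1.87. The members' regions had a median width of 979 bp in the vehicle list and 935 bp in the MS275 list, beside 977 and 931 bp for the regions at all gene starts. Their median deposited fold enrichment was 4.34 and 4.16, beside 2.88 and 2.99 at all gene starts. Each list pools its replicates, so widths and folds carry no error and differences between the lists were not tested.

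**Figure D2:**
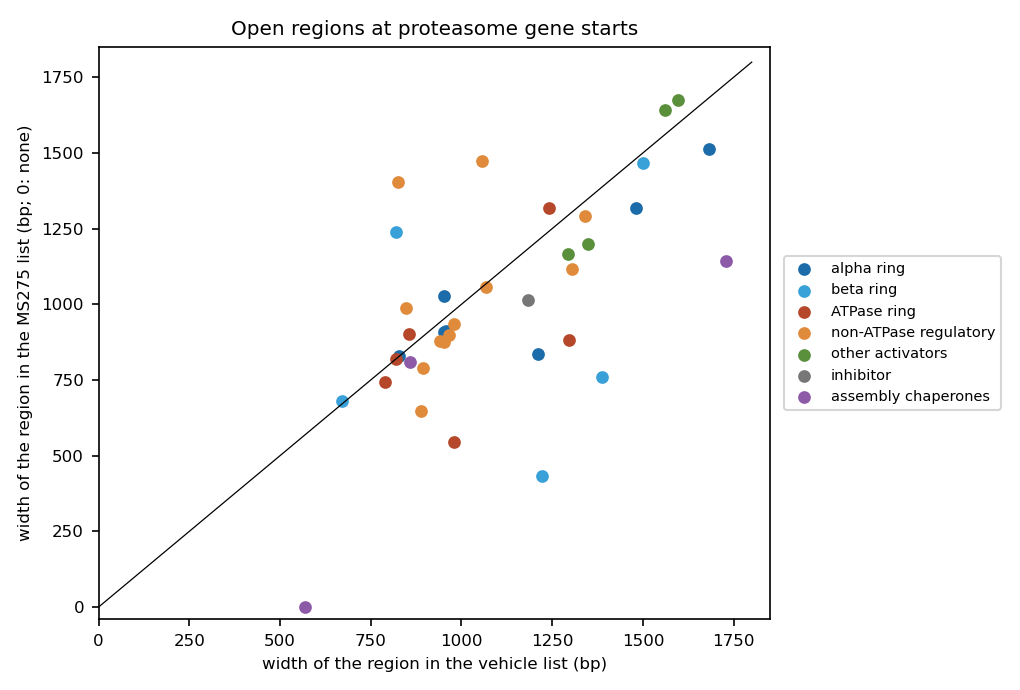
Width in bp of the open region at each proteasome gene start in the vehicle list (x axis) and in the MS275 list (y axis), 1 point per region coloured by role, with a line at equal width. Of 37 regions in both lists, 26 were narrower in the MS275 list, 10 wider and 1 equal; the point on the bottom edge is Psmg3, and Psmb5 lies far below the line.

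The narrower regions in the MS275 list were 70.3% of the members' regions, beside 58.5% of the 15274 regions at all gene starts that both lists held. The region at Psma2, an alpha ring gene, had the highest deposited fold enrichment of the members in both lists, 9.71 under vehicle and 10.4 under MS275. At Psmb5, which encodes a catalytic subunit, the region was 1221 bp wide in the vehicle list and 434 bp in the MS275 list. It was merged from 4 overlapping entries in the vehicle list and was 1 entry in the MS275 list. The MS275 list was also the shorter, with 246602 entries against 277369. At Psmb10 it was 1500 bp and 1467 bp wide, and the listed start lay 157 bp outside the vehicle region. The promoters of 4 genes are printed here: those of Psma2, Psmb3 and Psmd4, among the genes with the largest upward estimates, and that of Psmb5. Each is the 150 bases before the RefSeq start, 5′ to 3′ on the gene's strand (GRCm38.p6), and each start lay inside an open region in both lists. Capitals mark CCAAT (the CCAAT box, printed as ATTGG where it lies on the other strand), TGACNNNGC (the core of the antioxidant response element, to which Nfe2l1 and Nfe2l2 bind) and GCATGCG (from the palindrome that nuclear respiratory factor 1 binds); matches on both strands run together.
Psma2, chr13:14613092-14613241, plus strand: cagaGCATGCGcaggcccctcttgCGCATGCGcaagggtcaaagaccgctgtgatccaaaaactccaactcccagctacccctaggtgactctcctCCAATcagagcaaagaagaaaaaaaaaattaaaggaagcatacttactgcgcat
Psmb3, chr11:97703284-97703433, plus strand: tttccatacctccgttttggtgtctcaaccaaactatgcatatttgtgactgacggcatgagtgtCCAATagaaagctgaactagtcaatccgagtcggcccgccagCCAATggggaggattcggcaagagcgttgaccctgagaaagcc
Psmb5, chr14:54617996-54618145, minus strand: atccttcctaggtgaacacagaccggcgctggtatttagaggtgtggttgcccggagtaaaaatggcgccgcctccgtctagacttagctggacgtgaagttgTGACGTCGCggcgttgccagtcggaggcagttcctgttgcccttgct
Psmd4, chr3:95042615-95042764, minus strand: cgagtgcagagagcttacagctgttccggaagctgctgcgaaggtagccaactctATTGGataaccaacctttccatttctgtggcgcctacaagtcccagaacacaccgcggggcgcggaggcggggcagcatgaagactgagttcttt
The promoter of Psma2 held a CCAAT box and GCATGCG at 2 places, 1 of them on both strands, that of Psmb3 held 2 CCAAT boxes, that of Psmd4 held 1 on the other strand, and that of Psmb5 held the antioxidant response element core.

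The motifs were searched on both strands of the 300 bases from 250 before to 50 after each start, and a match is a description of letters only. TGACNNNGC was found at 6 of 37 members (16.2%: Psmb5, Psmb6, Psmc6, Psmd9, Psmd12 and Psme4), against 12.5% of 27025 promoters and 13.2% of the protein-coding ones. CCAAT was found at 12 (32.4%, against 37.9% and 39.0%). It was not found at Psmg3, Psmd9 or Psmd13, whose log2 fold changes (0.15, 0.13 and 0.13) were close to those of Psma2, Psmd4 and Psmb3. GGGCGG, the GC box, was found at 22 (59.5%, against 35.9% of all promoters and 46.3% of those of protein-coding genes). GCATGCG was found at 3, Psma2, Psmc5 and Psmg1 (8.11%, against 3.64% and 4.48%).

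**Figure D3:**
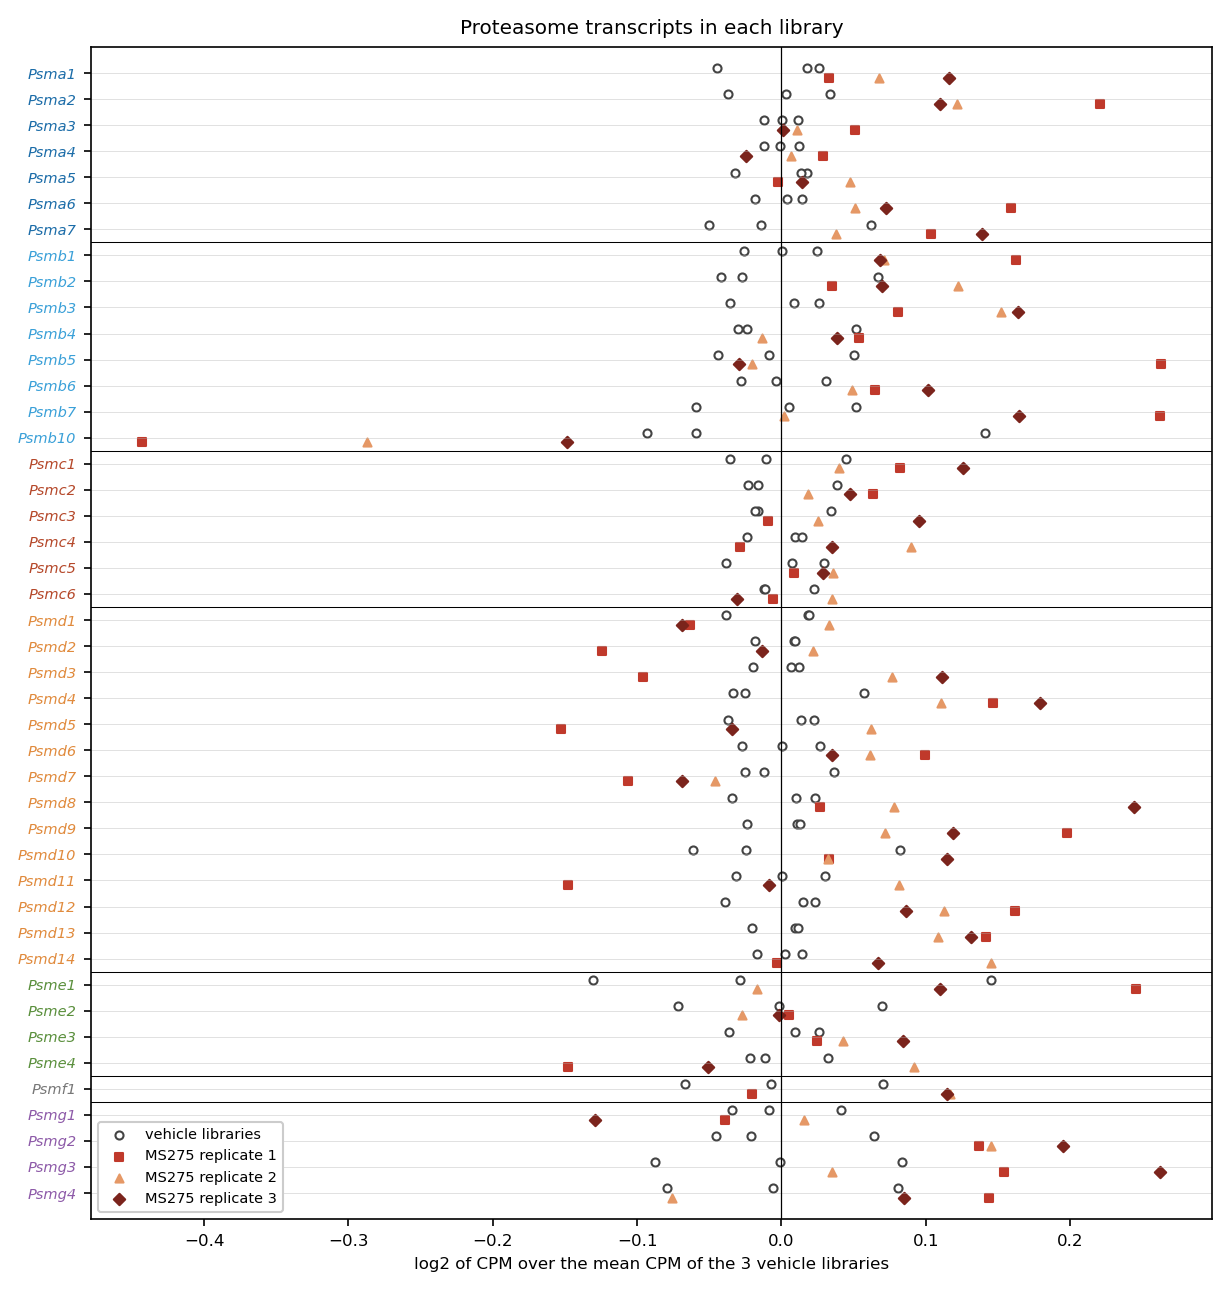
Level of 44 proteasome transcripts in each library, as log2 of its CPM over the mean of the 3 vehicle libraries (x axis), with genes on the y axis coloured and ruled off by role; open circles are vehicle libraries and filled symbols the MS275 replicates. Psma8, at under 1 CPM, is not drawn. In 13 genes all MS275 points lie to the right of the vehicle points and in 2, Psmb10 and Psmd7, all lie to the left.

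The groups of libraries did not overlap for 13 members with MS275 higher and for 2 with MS275 lower, where 15.9% and 17.9% of all genes did so. The higher ones were Psma1, Psma2, Psma6, Psmb1, Psmb3, Psmb6, Psmd4, Psmd6, Psmd8, Psmd9, Psmd12, Psmd13 and Psmg2, and the lower ones Psmb10 and Psmd7.

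The alpha ring forms the outer gate of the core. Of its 8 genes 7 had estimates above 0, with a median log2 fold change of 0.05, and 1, Psma2, had an unadjusted p under 0.05. Psma2 (chr13:14613242-14625673) stood at 127, 133 and 130 CPM in vehicle replicates 1, 2 and 3 and at 151, 141 and 140 CPM in the MS275 replicates. All MS275 libraries were above all vehicle libraries, and the highest was MS275 replicate 1. The mean went from 130 ± 3.18 to 144 ± 6.17 CPM (SD, n = 3 each). The log2 fold change was 0.15 (SE 0.04, 95% interval 0.05 to 0.25, edgeR quasi-likelihood adjusted p = 0.0583). Psma8, a testis-type alpha subunit, had the lowest estimate of the ring but was counted at only 11 to 23 reads per library. Its log2 fold change was -0.11 with an interval from -0.84 to 0.63, so a difference was not detectable at this depth.

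The beta ring carries the active sites. Of its 8 genes 7 had estimates above 0, with a median log2 fold change of 0.08; 3 had an unadjusted p under 0.05 with higher levels (Psmb1, Psmb3, Psmb7) and 1 with a lower level (Psmb10). Psmb5, the chymotrypsin-like subunit and the main target of bortezomib, stood at 60.8, 58.4 and 57.0 CPM under vehicle and 70.5, 57.9 and 57.5 CPM under MS275. Only MS275 replicate 1 was high, and the other MS275 libraries lay within the vehicle range. Its log2 fold change was 0.08 (SE 0.08, adjusted p = 0.535), and -0.02 without MS275 replicate 1.

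Psmb6, the caspase-like subunit, stood at 160, 153 and 156 CPM under vehicle and 164, 162 and 168 CPM under MS275. The groups did not overlap, with all MS275 libraries slightly higher, for a log2 fold change of 0.07 (SE 0.04, edgeR quasi-likelihood adjusted p = 0.256).

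Psmb7, the trypsin-like subunit, stood at 166, 174 and 180 CPM under vehicle and 208, 173 and 194 CPM under MS275. The groups overlapped, since MS275 replicate 2 lay among the vehicle libraries while replicates 1 and 3 lay above them. Its log2 fold change was 0.15 (SE 0.06, edgeR quasi-likelihood adjusted p = 0.168), with 0.09 without MS275 replicate 1 and 0.22 without replicate 2, where its adjusted p was 0.0211, in a range from 0.0211 to 0.999 over the alternatives.

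Psmb3, a structural beta subunit whose CCAAT boxes are shown above, stood at 102, 105 and 106 CPM under vehicle and 110, 116 and 117 CPM under MS275. All MS275 libraries were higher, and MS275 replicate 1 was the lowest of them. The log2 fold change of Psmb3 was 0.13 (SE 0.04, edgeR quasi-likelihood adjusted p = 0.0702).

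Psmb10 (chr8:105935728-105938392), the immunoproteasome counterpart of Psmb7, had the lowest estimate of all members. It stood at 34.1, 33.4 and 39.2 CPM under vehicle and at 26.2, 29.2 and 32.1 CPM under MS275. All MS275 libraries were below all vehicle libraries, and the lowest was MS275 replicate 1. The mean was 35.6 ± 3.19 CPM under vehicle and 29.1 ± 2.96 CPM under MS275 (SD, n = 3 each), a ratio of 0.819. The log2 fold change was -0.29 (SE 0.09, 95% interval -0.48 to -0.09, edgeR quasi-likelihood adjusted p = 0.0613). Its adjusted p was 0.0164 by DESeq2 and ran from 0.0137 to 0.398 over the alternatives, and the estimate was -0.21 without MS275 replicate 1.

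**Figure D4:**
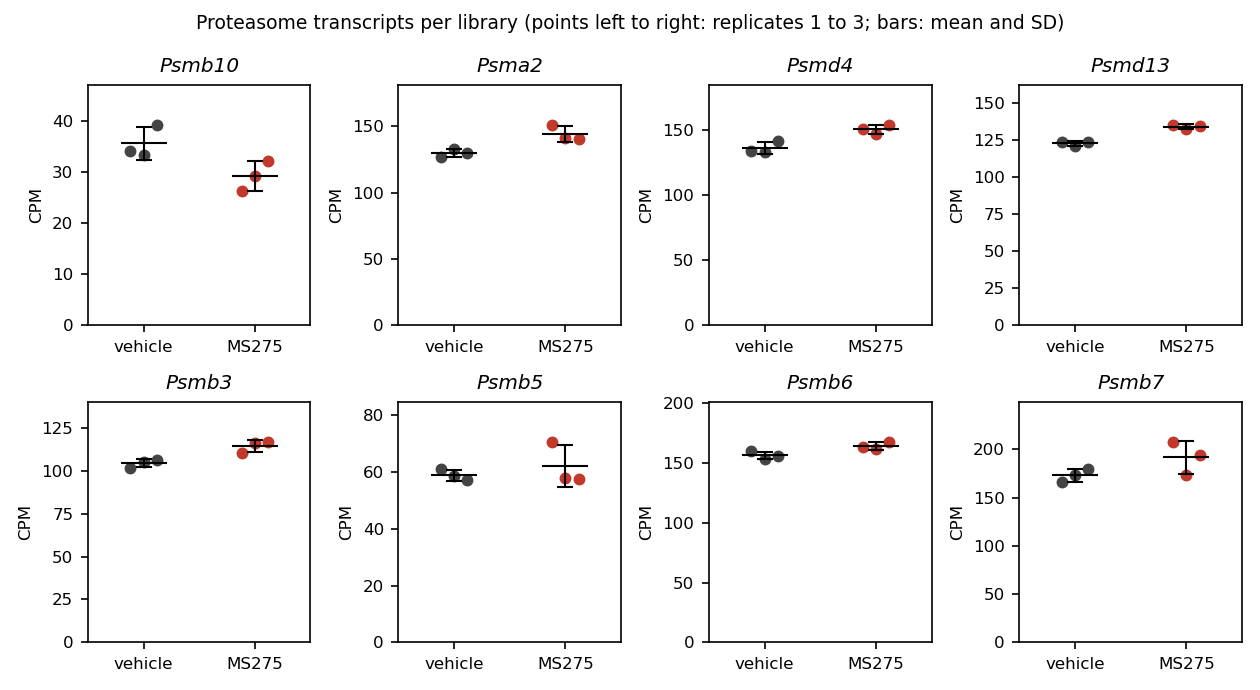
CPM (y axis, from 0) of 8 proteasome transcripts under vehicle and MS275; points are replicates 1 to 3 from left to right, with bars for the mean and SD. Psmb10 is lower in all 3 MS275 libraries; Psma2, Psmd4, Psmd13, Psmb3 and Psmb6 are higher in all 3; Psmb5 is high only in MS275 replicate 1; Psmb7 overlaps between groups.

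The ATPase ring, Psmc1 to Psmc6, unfolds the substrate and threads it into the core. All 6 estimates were above 0, from 0.00 for Psmc6 to 0.08 for Psmc1, with a median log2 fold change of 0.04. None had an unadjusted p under 0.05 and none had groups that did not overlap. Psmc6 stood at 171, 167 and 167 CPM under vehicle and 168, 172 and 165 CPM under MS275, with the libraries of the 2 groups interleaved. Its 95% interval ran from -0.09 to 0.09 on the log2 scale. Psmc1, with 236, 240 and 250 CPM under vehicle and 257, 249 and 264 CPM under MS275, had an edgeR quasi-likelihood adjusted p of 0.221.

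The 14 Psmd genes encode the scaffold, ubiquitin receptors, deubiquitinase and lid of the regulatory particle, and, in Psmd5, Psmd9 and Psmd10, chaperones of its assembly. Estimates were above 0 for 9 of 14, with a median log2 fold change of 0.06; 4 had an unadjusted p under 0.05, all with higher levels (Psmd4, Psmd9, Psmd12 and Psmd13). Psmd4 (chr3:95032688-95042614), a ubiquitin receptor, stood at 133, 133 and 141 CPM under vehicle and 150, 147 and 154 CPM under MS275. Every MS275 library was above every vehicle library. The mean went from 136 ± 4.78 to 150 ± 3.57 CPM (SD, n = 3 each), a log2 fold change of 0.15 (SE 0.04, 95% interval 0.05 to 0.24, edgeR quasi-likelihood adjusted p = 0.0569).

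Psmd13 (chr7:140882394-140898642), a lid subunit, stood at 124, 121 and 124 CPM under vehicle and 136, 132 and 135 CPM under MS275. The gap between the groups was wider than the spread within either. Psmd13's log2 fold change was 0.13 (SE 0.04, edgeR quasi-likelihood adjusted p = 0.0569). Psmd13 is 1 of 12 members that overlap another RefSeq gene, in its case Gm15542. It is also 1 of 6 members, of 37 with a listed start, that start within 1000 bp of a gene on the other strand. That gene is Sirt3, and 12.2% of all genes have such a neighbour. Psma2, which overlaps no other RefSeq gene, shares its start region with Mrpl32 in the same way. Whether the counting used strand is not stated in the sources here, so reads of overlapping genes, such as Psmd13 and Gm15542, may not be separable.

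Psmd2, a scaffold that docks ubiquitin receptors, stood at 425, 425 and 417 CPM under vehicle and 388, 429 and 419 CPM under MS275. Only MS275 replicate 1 was low. Its log2 fold change was -0.04 (SE 0.05, edgeR quasi-likelihood adjusted p = 0.628), and 0.0077 without that library. Psmd14, the deubiquitinase, stood at 148, 150 and 151 CPM under vehicle and 149, 165 and 157 CPM under MS275, with a log2 fold change of 0.07 (adjusted p = 0.339). Psmd7, its partner in the lid, stood at 137, 136 and 142 CPM under vehicle and 129, 134 and 132 CPM under MS275, lower in all 3. It had the lowest estimate of the regulatory particle, -0.07 (SE 0.04, edgeR quasi-likelihood adjusted p = 0.257).

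The other activators cap the core in place of the regulatory particle, and none of the 4 had an unadjusted p under 0.05. Psme1 and Psme2, which form the interferon-inducible cap, had log2 fold changes of 0.12 (SE 0.09, adjusted p = 0.412) and -0.01 (SE 0.05, edgeR quasi-likelihood adjusted p = 0.931). Psme1 stood at 23.8, 25.5 and 28.8 CPM under vehicle and 30.8, 25.7 and 28.1 CPM under MS275, and only MS275 replicate 1 exceeded the vehicle range. Psme3, the nuclear cap, was at 0.05 (adjusted p = 0.44) and Psme4 at -0.03 (adjusted p = 0.762). Psme4 stood at 143, 147 and 142 CPM under vehicle and 130, 154 and 139 CPM under MS275, so the MS275 libraries lay on both sides of the vehicle libraries. The inhibitor Psmf1 had a log2 fold change of 0.07 (SE 0.05, adjusted p = 0.412) with overlapping groups.

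The Psmg chaperones assemble the alpha ring. Psmg2 had the highest estimate of all members, 0.16 (SE 0.06, edgeR quasi-likelihood adjusted p = 0.128). It stood at 20.0, 18.5 and 18.8 CPM under vehicle and 21.0, 21.1 and 21.9 CPM under MS275, with no overlap. Psmg3 and Psmg4 had estimates of 0.15 and 0.05, and Psmg1, with the lowest, of -0.05 (adjusted p = 0.749), each with overlapping groups.

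Core and regulatory genes were then set against each other within each library, which does not depend on how libraries are scaled. The median log2 fold change was 0.07 over the 16 core genes and 0.04 over the 20 regulatory genes. The mean log2 CPM of core genes minus that of regulatory genes was -0.66, -0.66 and -0.62 in the vehicle replicates and -0.58, -0.71 and -0.67 in the MS275 replicates. The group means were -0.65 (SD 0.02) and -0.65 (SD 0.07), a difference of -0.0012, inside the spread. It was -0.04 without MS275 replicate 1 and 0.03 without MS275 replicate 2. Leaving out Psma8, Psmb10 and the chaperones Psmd5, Psmd9 and Psmd10 gave 14 core and 17 regulatory genes. The difference was then -0.36, -0.37 and -0.36 under vehicle and -0.26, -0.37 and -0.35 under MS275. MS275 replicate 1 stood apart from the other 5 libraries, and without it the difference between the groups went from 0.03 to 0.0017, the latter an alternative added after seeing the data. This is a description, with no test.

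**Figure D5:**
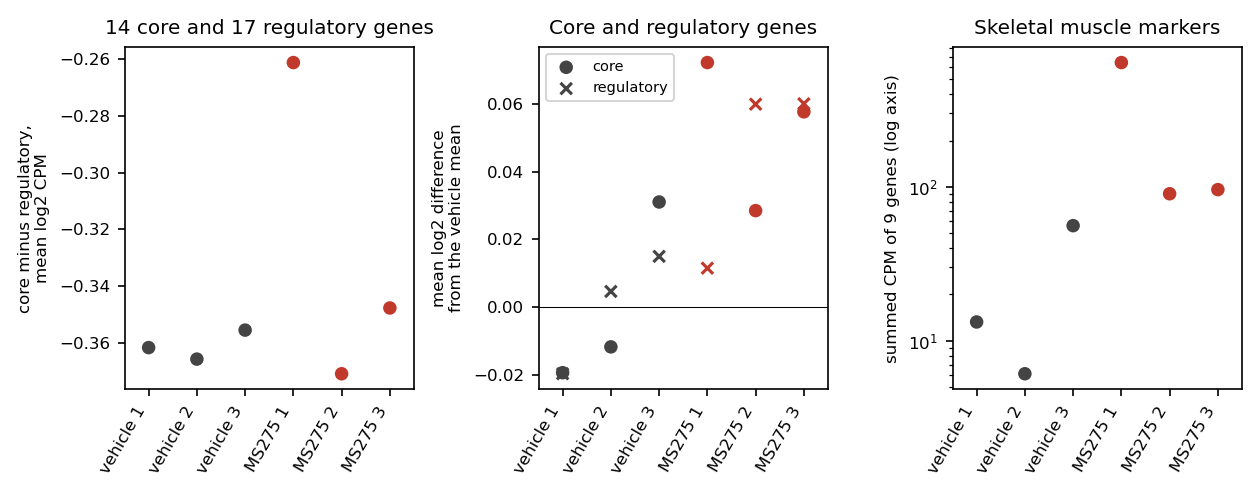
Left, core minus regulatory mean log2 CPM in each library for 14 core and 17 regulatory genes; middle, mean log2 difference of core (circles, without Psma8) and regulatory (crosses) genes from the vehicle mean; right, summed CPM of 9 skeletal muscle markers (log axis). MS275 replicate 1 is highest in the left panel at -0.26 and in the right panel at 642 CPM.

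MS275 replicate 1 was the highest of the 6 libraries for 9 of 16 core genes and 5 of 20 regulatory genes. It was the lowest for 1 core and 6 regulatory genes. Over all 16819 genes tested it was the highest for 3857 and the lowest for 3934. Relative to the vehicle mean, core genes without Psma8 lay at 0.07, 0.03 and 0.06 on the log2 scale in MS275 replicates 1, 2 and 3, and regulatory genes at 0.01, 0.06 and 0.06. Both particles lay above the vehicle mean in all 3 MS275 libraries, and only in replicate 1 did the core stand further above it. That library also had the highest muscle, neutrophil and erythroid marker levels given above, and their part in the separation of core from regulatory genes was not tested. Vehicle replicate 1 was the lowest of the 6 libraries for 19 of 45 members, and for 2633 of all 16819 genes tested.

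A wider list of 38 genes covered cofactors, assembly and transcriptional control, ubiquitin supply, and shuttle factors. Of these, 37 were tested, and 0 rose and 0 fell by edgeR, where 5.10% and 5.89% of all genes did. At an unadjusted p under 0.05, 1 was higher and 5 were lower, against 13.6% and 14.9% of all genes. The median log2 fold change was 0.02. Pomp, the chaperone that matures the core, stood at 122, 121 and 127 CPM under vehicle and 143, 128 and 128 CPM under MS275. The groups did not overlap, and MS275 replicate 1 was well above the rest. Over all libraries its log2 fold change was 0.12 (SE 0.05, edgeR quasi-likelihood adjusted p = 0.176). Nfe2l1, the factor that raises proteasome genes when proteasome activity is low, stood at 787, 803 and 810 CPM under vehicle and 823, 855 and 830 CPM under MS275. The groups did not overlap, and its log2 fold change was 0.06 (SE 0.04, edgeR quasi-likelihood adjusted p = 0.288). Over the whole list 4 of 37 genes lay higher in all 3 MS275 libraries than in any vehicle library, beside 15.9% of all genes tested.

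The 5 lower genes were named after their values were seen. They were AI314180 (the proteasome adaptor also called Ecpas), Ddi2 (a protease that activates Nfe2l1), Zfand2a (a proteasome-associated stress protein), Uba6 (a ubiquitin-activating enzyme) and Ubqln2 (a shuttle factor). Each was lower in all 3 MS275 libraries than in any vehicle library. Over the whole list 7 of 37 genes were, beside 17.9% of all genes tested. AI314180 had a log2 fold change of -0.16 (edgeR quasi-likelihood adjusted p = 0.0543) and Uba6 of -0.26 (adjusted p = 0.0606).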

How the data were processed

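The RNA values are raw counts of reads per gene as deposited by the authors, from poly(A) libraries made with a directional kit, per the labels' protocols. The submitters' processing notes name the mm10 build and, with no role, STAR 2.7.0, FastQC 0.10.1, R 3.5.0, limma 3.38.3 and edgeR 3.24.3. The counter and whether it used strand are not stated there. The 5 rows that name no gene, with 18.89% to 20.56% of a library's reads, were left out; 12.39% to 14.07% were reads the files set aside as not unique, so reads shared with near-identical copies such as pseudogenes are not in a member's count. The deposited ATAC lists, 1 per treatment from combined replicates, give each region a score, a fold ratio and a −log10 q-value. The caller is not stated there. Fold ratios and widths are given for both lists side by side, as a description, and no difference between the lists was tested.

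Gene counts entered edgeR 4.0.16 under R 4.3.3 (TMM, filterByExpr, quasi-likelihood, 2-sided, treatment as the only term), with Benjamini-Hochberg adjustment over 16819 genes and a threshold of 0.05. The biological coefficient of variation was 8.62%. SE is the log2 fold change over the square root of F. Mean log2 CPM used a prior count of 2. No pair of replicates agreed within sampling noise. P-values measure the spread between these libraries of pooled mice. Starts, gene positions and promoter sequences are RefSeq's for GRCm38.p6; overlapping ATAC entries were merged, and an overlap of 1 bp sufficed.

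Members and lists were chosen with earlier results of these data known. Named genes were the catalytic subunits, ubiquitin receptors and deubiquitinase, activators, inhibitor, the highest and lowest estimate of each role, and Pomp, Nfe2l1, Psmb8 and Psmb9; Psmb3, Psmd13 and the other members listed by overlap were named after their values were seen. Alternatives were DESeq2 size factors, no filter, DESeq2 1.42.0, limma voom (3.58.1), the replicate number as a block, muscle, mitochondrial and haemoglobin genes left out, the muscle level as a covariate, each library left out, and for ATAC a −log10 q of 5, windows of 500 and 2500 bp and an overlap of 200 bp.

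The 1.3-fold bound and the motif GCATGCG were set after values were seen. A slightly narrower bound used first also left out Psmg3, and the full palindrome searched first was found at Psma2 and Psmg1 but not at Psmc5. A gene of the wider list is counted but not reported here by name.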

Additional observations from a re-analysis of the deposited data

How the results depend on the processing

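Of 13 alternative RNA fits, 30 of 45 members kept the sign of their estimate in every one and 15 did not, and 6 members were called in at least 1. Members that rose numbered 3 with DESeq2 (7.14% of all genes rose there) and 1 with the replicate block (5.83%), and 0 to 4 with a library left out: Psmb3 without MS275 replicate 1 (5.43%), and Psma2, Psmb7, Psmd4 and Psmd13 without MS275 replicate 2 (8.11%). Psmb10 was the 1 member that fell without the filter (4.55% of all genes fell), with DESeq2 (6.99%) and with the block (6.58%). Pathway genes that rose numbered 1 without the filter, where 4.77% of all genes rose. With a library left out 0 to 1 rose, with 1 without MS275 replicate 2 (8.11%) and 1 without MS275 replicate 3 (2.61%). Those that fell numbered 2 (AI314180 and Uba6) without the filter (4.55%), with DESeq2 (6.99%) and with the block (6.58%). With a library left out 0 to 2 fell, the 2 without MS275 replicate 2 (8.03%). The replicate numbers did not pair the libraries (correlations of deviations 0.02, 0.11 and -0.06), and the block also turned Psmc6 to -8.4e-05.

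The muscle level was 6.11 to 56.0 CPM under vehicle and 90.2 to 642 CPM under MS275, with no overlap. As a covariate it is confounded with treatment, so its part and that of the drug cannot be told apart. With the muscle level as a covariate, 16 of all genes tested were called against 1849 in the main comparison, no member was called, and the median over core genes was 0.021. The estimates of 12 of 45 members then turned sign: Psmb5 (-0.083), Psmd2 (0.056), Psme1 (-0.12), Psme2 (0.0072), Psme4 (0.099), Psma3, Psma4, Psmb4, Psmc2, Psmd1, Psmd5 and Psmd11; so did that of Pomp (-0.019). Psmc6 was -0.00083 without the filter. With a library left out, 10 members turned sign at least once. Estimates ran from -0.33 to 0.062 for Psma8, -0.022 to 0.13 for Psmb5, -0.013 to 0.020 for Psmc6, -0.063 to 0.0077 for Psmd2, -0.040 to 0.028 for Psme2 and -0.094 to 0.026 for Psme4; the other 4 were Psma4, Psmd3, Psmd5 and Psmd11. Without MS275 replicate 1, 6 turned: Psma4, Psmb5, Psmd2, Psmd5, Psmd11 and Psme4. The median over regulatory genes ran from 0.032 to 0.065, the highest without MS275 replicate 1. Calls over all genes ran from 261 without vehicle replicate 2 to 2763 without MS275 replicate 2. Both ATAC counts, 37 and 36, were the same under all 4 alternatives. The causes of these shifts were not tested.

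Estimates of a few percent lie near the limit of 3 libraries a group, and a p that misses the threshold does not show equal levels. Transcripts of whole ganglia do not report protein, activity or single cell types.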

Other observations

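Estimates for the 3 immunoproteasome subunits lay on both sides of 0, and none passed the test. Psmb8, the counterpart of Psmb5, stood at 12.0, 12.8 and 16.1 CPM under vehicle and 14.9, 14.8 and 16.5 CPM under MS275, with overlapping groups and a log2 fold change of 0.17 (SE 0.11, edgeR quasi-likelihood adjusted p = 0.336). Psmb9, the counterpart of Psmb6, stood at 2.89, 3.10 and 3.89 CPM under vehicle and 3.49, 4.22 and 4.14 CPM under MS275, with a log2 fold change of 0.27 (SE 0.15, edgeR quasi-likelihood adjusted p = 0.271). Psmb10 lay lower in every MS275 library. CPM ratios of these genes are not corrected for transcript length and are compared only between libraries. The ratio of Psmb8 to Psmb10 was 0.351, 0.384 and 0.412 under vehicle and 0.568, 0.506 and 0.513 under MS275. The ratio of Psmb9 to Psmb10 was 0.0846, 0.0928 and 0.0990 under vehicle and 0.133, 0.145 and 0.129 under MS275. Neither ratio overlapped between the groups. The mean log2 ratios differed by 0.47 and 0.56, each with an exact 2-sided permutation p of 0.10, the smallest that 3 libraries against 3 allow. With a library left out the differences ran from 0.41 to 0.52 and from 0.50 to 0.61. These ratios were chosen after the values were seen, with Psmb10 already lower in every MS275 library. Neither the p nor these ranges can therefore test a shift, and the ratios are a description only. Of 5 macrophage markers, 4 were tested and 0 passed, with summed levels of 29.3 to 30.6 CPM under vehicle and 29.2 to 34.8 CPM under MS275. Lists of interferon context, endothelium and mural cells lay higher in every MS275 library, as did skeletal muscle. Those of sensory neurons, satellite glia, myelinating Schwann cells, fibroblasts, neutrophils, lymphocytes and erythroid cells overlapped between the groups. A list of interferon context (Psmb8, Psmb9, Tap1 and B2m, which holds both subunits above) summed to 138 to 168 CPM under vehicle and 196 to 238 CPM under MS275, and 1 of 4 genes rose. That gene was neither Psmb8 nor Psmb9, which at the levels above made up a small part of these sums. Endothelial markers summed to 77.5 to 86.6 and 95.8 to 116 CPM (3 of 5 rose), and mural cell markers to 219 to 244 and 282 to 315 CPM (3 of 3 rose). Of all genes tested 5.10% rose. No endothelial or mural marker was at 0 in every library. The part of these lists in the ratios was not tested.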
